A study of Mus musculus with 4 samples.

Results

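Among the genes that a comparison of MIN6 cells with and without the GR expression vector related to differential peaks of RNA methylation, 176 were zinc finger protein genes named Zfp and a number. They were chosen by name from a table of 9225 distinct Ensembl gene IDs: 169 carried such a symbol in the table, and 7 IDs without a symbol were named by a reference table of gene IDs. MIN6 is a mouse insulinoma line, labelled as of the C57BL/6 strain, that serves as a model of pancreatic beta cells. One arm was transfected with a control vector and the other with a vector expressing GR, read here as the glucocorticoid receptor, with 10 µg of plasmid per dish in both, and RNA was taken 24 hours later. Each arm gave 1 input library and 1 library immunoprecipitated with an antibody to N6-methyladenosine (m6A), 4 libraries in all. The labels do not say how many cultures stood behind a library.

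With 1 library of each kind per arm, nothing below has a replicate check. The gene table holds an ID, a symbol and the names of protein domains on each of its 17052 lines. It gives no fold change, direction, position, RNA level or p-value, so depth is unknown, and a listed gene is not shown to have gained or lost m6A. The meaning of a line is not given in the sources used here. Of 6 beta-cell genes, Ins1, Pdx1, Nkx6-1, Mafa and Slc2a2 were listed and Ins2 was not, beside 25.2% of all protein-coding genes. Being listed is no measure of the level of these genes. No Zfp gene is in the authors' table of autophagy peaks, the 1 file that gives folds.

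Most mouse Zfp genes encode C2H2 proteins, in which short repeated domains fold around a zinc ion and read DNA bases. Many carry a KRAB domain at the start of the protein. This domain binds the corepressor Trim28 (KAP1), which brings the methyltransferase Setdb1 and silences transposable elements and other targets. KRAB zinc finger genes arose by repeated duplication, lie in clusters on several chromosomes and often have close copies. m6A is written on RNA by a complex around Mettl3 and Mettl14 and is known for its part in the decay, splicing and translation of messenger RNA.

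One pair of these copies shows how close they can be. Over 300 bases, from 250 before the start of the gene to 50 after it, Zfp955a and Zfp955b have the same sequence in RefSeq (build GRCm38.p6), base for base. Zfp955a (chr17:33255096-33255395, minus strand) was in the gene table on 1 line. Zfp955b (chr17:33289294-33289593, plus strand) was not, though the pseudogene Zfp422-ps, listed on 4 lines, overlaps that gene. Their shared sequence is given first below, with each CpG dinucleotide in capitals. Next come 2 listed genes that mark the contrast described further on, each with the most lines among those at the median CpG count of its group. They are Zfp14, with a KRAB domain (chr7:30051347-30051646, minus strand), and Zfp775, without one (chr6:48601757-48602056, plus strand).
Zfp955a and Zfp955b: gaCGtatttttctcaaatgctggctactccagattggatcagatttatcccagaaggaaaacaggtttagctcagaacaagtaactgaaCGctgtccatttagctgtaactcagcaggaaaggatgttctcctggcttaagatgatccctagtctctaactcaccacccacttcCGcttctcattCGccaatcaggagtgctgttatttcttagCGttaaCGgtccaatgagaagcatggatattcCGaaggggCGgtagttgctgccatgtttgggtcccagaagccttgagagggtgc
Zfp14: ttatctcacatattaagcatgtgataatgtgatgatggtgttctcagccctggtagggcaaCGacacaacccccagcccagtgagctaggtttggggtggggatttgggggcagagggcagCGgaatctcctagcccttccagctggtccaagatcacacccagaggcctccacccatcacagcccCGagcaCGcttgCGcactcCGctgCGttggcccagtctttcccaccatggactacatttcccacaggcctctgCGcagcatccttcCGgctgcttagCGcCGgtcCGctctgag
Zfp775: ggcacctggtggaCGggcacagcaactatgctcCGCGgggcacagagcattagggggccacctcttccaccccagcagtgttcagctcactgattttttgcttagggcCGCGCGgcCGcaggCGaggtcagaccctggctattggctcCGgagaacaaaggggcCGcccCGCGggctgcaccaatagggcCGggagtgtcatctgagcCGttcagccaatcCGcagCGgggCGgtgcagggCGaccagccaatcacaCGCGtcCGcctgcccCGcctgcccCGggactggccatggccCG
The start shared by Zfp955a and Zfp955b holds 8 CpG sites, that of Zfp14 12 and that of Zfp775 24. CpG sites were counted as the letters CG, which read the same on both strands. At least 1 was present in 95.0% of 17491 starts of protein-coding genes, and 8 or more in 63.9%.

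The 176 listed genes were 42.2% of the 417 Zfp genes of the reference, and 241 were not listed. The table as a whole held 16.6% of all 55450 gene IDs of the reference. Among protein-coding genes, 169 of 397 Zfp genes (42.6%) were listed, beside 25.2% of 21896 protein-coding genes. The listing is what chose the members, so nothing is read from that difference. The other members with a RefSeq class were 2 long non-coding RNAs (Zfp85os and Zfp652os) and 4 pseudogenes (Zfp133-ps, Zfp422-ps, Zfp520-ps and Zfp862-ps). Zfp125 had no entry of that name in the RefSeq table. Zfp85os lies across Zfp85, which was not listed. The labels do not say that the library kit kept strand, so reads of such a pair cannot be told apart.

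Other families of zinc finger genes stood on either side of the Zfp share of 42.2%, with 25.2% of protein-coding genes as background. Of the Zbtb genes, which join a BTB domain to C2H2 fingers, 28 of 42 (66.7%) were listed. The Zscan genes, with a SCAN domain, had 6 of 21 (28.6%), the Zkscan genes 6 of 12 and the Klf genes 7 of 17 (41.2%). The Zc3h genes, whose CCCH fingers bind RNA rather than DNA, had 12 of 17 (70.6%). Also counted were Zcchc (8 of 14), Zdhhc (9 of 24), Zfyve (3 of 8) and Zfand (3 of 7). Zfhx had 1 of 4 listed, Zfpm 0 of 2 and Znf 0 of 1. No difference between families was tested.

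The 176 genes filled 376 lines. A listed Zfp gene had a median of 2 lines (quartiles 1 and 3, range 1 to 9), and 68 genes (38.6%) had 1. Over all listed genes the median was 1 (quartiles 1 and 2), and 55.6% had 1 line. Genes on 3 or more lines made up 29.5% of the Zfp genes and 18.7% of all listed genes. The Zbtb genes also had a median of 2 lines, with quartiles at 1 and 4. All lines of a gene were identical, so lines carry a number and no further content.

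Zfp276 had 9 lines, more than any other Zfp gene. It covers bases 123254195 to 123270551 of chromosome 8 and overlaps Fanca and Vps9d1, neither of which was listed. Zfp612 (chromosome 8, 110079705 to 110092753), a KRAB gene, followed with 6 lines. Another 8 genes had 5 lines. Of these, Zfp112, Zfp12 and Zfp729b are KRAB genes, and Zfp36l2 encodes a CCCH protein that promotes decay of messenger RNA with AU-rich elements. Zfp462 and Zfp516 encode large C2H2 proteins, the latter known as an activator of the brown fat programme, and Zfp513 and Zfp518a are further C2H2 genes without KRAB. On 4 lines were 15 genes, among them Zfp407, known for insulin-stimulated glucose uptake in fat cells, Zfp14, Zfp82, Zfp212, Zfp426, Zfp607a, Zfp667, Zfp788, Zfp799, Zfp950 and the pseudogene Zfp422-ps. The remaining genes were 27 on 3 lines, such as Zfp281, Zfp622 and Zfp768, 56 on 2 lines, such as Zfp217 and Zfp638, and 68 on 1 line, such as Zfp148 and Zfp445.

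**Figure D1:**
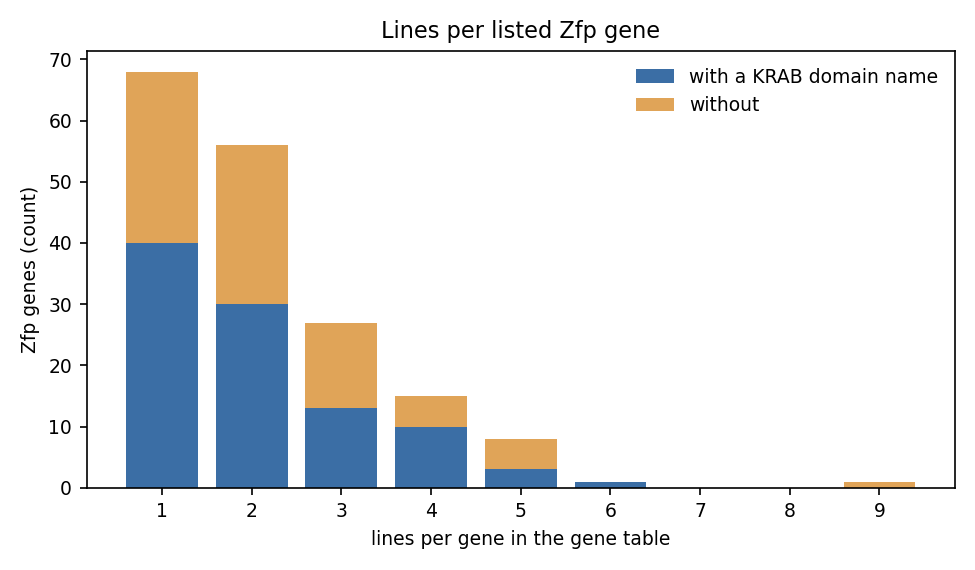
Number of listed Zfp genes (vertical axis) by lines per gene in the gene table (horizontal axis), split by whether the table names a KRAB domain. Of the 176 genes, 68 sit at 1 line and 1 gene, Zfp276, at 9 lines, and KRAB genes occur from 1 to 6 lines.

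Among listed Zfp genes, the number of lines followed neither gene length nor the number of annotated transcripts. Unlisted genes, which have no line, are left out of this comparison. Across the 169 protein-coding members, lines and RefSeq transcripts had a Pearson r of 0.06 and a Spearman rho of 0.07. Lines and the log10 of gene length had 0.06 and 0.03. These values describe genes that share libraries and ancestry. Zfp729b had 5 lines with 1 RefSeq transcript, and Zfp112 the same. Zfp462, with 18 transcripts over 139073 bp, also had 5.

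The table names the domains of each protein, which the choice by symbol did not use. A C2H2 finger was named for 165 of the 176 genes. They made up 54.6% of the 302 listed genes of any name with such a finger, and Zbtb genes were 26 of these. The reference holds 417 Zfp and 42 Zbtb genes, so these counts go with family size. Domain names are at hand for listed genes only, so the 54.6% has no background share. A KRAB domain was named for 97 Zfp genes (55.1%), 6 of them with a SCAN domain too: Zfp110, Zfp202, Zfp263, Zfp287, Zfp445 and Zfp446. Zfp24 and Zfp397 had SCAN without KRAB, and Zfp131 and Zfp651 had a BTB domain. Listed KRAB genes outside the Zfp name numbered 25, of which 19 are unnamed models and 5 are Zkscan genes.

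Of the listed genes, 11 had no C2H2 finger named. They were Zfp36l2 with its CCCH fingers, Zfp185 with a LIM domain, the nucleolar protein gene Zfp330, Zfp365 and the 7 IDs without a deposited symbol. Small domain groups also occurred. A matrin-type finger, found in proteins that bind RNA, was named for Zfp407, Zfp622, Zfp638 and Zfp830. The domain DUF3669 was named for Zfp212, Zfp282, Zfp777 and Zfp956, all 4 from 1 cluster on chromosome 6. Zfp541 carries ELM2 and SANT domains, which occur in histone deacetylase complexes.

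KRAB and other members differed in place and in the sequence at their starts, and hardly in lines. Both groups had a median of 2 lines, with means of 2.06 for the 97 KRAB genes and 2.23 for the 79 others. The others include the 7 IDs without a deposited symbol, for which no domain is named. Of the KRAB genes, 69 (71.1%) lay in clusters, defined as at least 3 Zfp genes with neighbouring starts at most 250 kb apart. Of the others, 19 of 78 with a position (24.4%) did. The starts of 83 KRAB members had a median of 12 CpG sites in 300 bases (quartiles 9 and 17). The starts of 57 other members had a median of 24 (quartiles 18 and 34), as in the sequences of Zfp14 and Zfp775 above. The ranges between quartiles did not meet, though the full ranges overlapped. Median gene length was nearly the same, 15765 bp and 15306 bp. Domain names are at hand for listed genes only, so the KRAB share of unlisted Zfp genes was not analysed here.

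Starts and lengths can be compared between listed and unlisted Zfp genes. The median was 16 CpG sites (quartiles 10 and 24) for 139 listed protein-coding Zfp genes and 12 (quartiles 7 and 20) for 192 unlisted ones. The ranges, 1 to 54 and 2 to 59, covered each other. Among other protein-coding genes the medians were 22 for listed and 10 for unlisted genes, a wider gap. Olfactory and vomeronasal receptor genes, nearly all unlisted, were not left out of these other genes, so the gaps are not like for like. Listed Zfp genes had a median length of 15712 bp and unlisted ones 21006 bp. For other protein-coding genes these were 16533 bp and 17351 bp. No RNA level is in the files, so levels of listed and unlisted genes could not be set side by side.

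**Figure D2:**
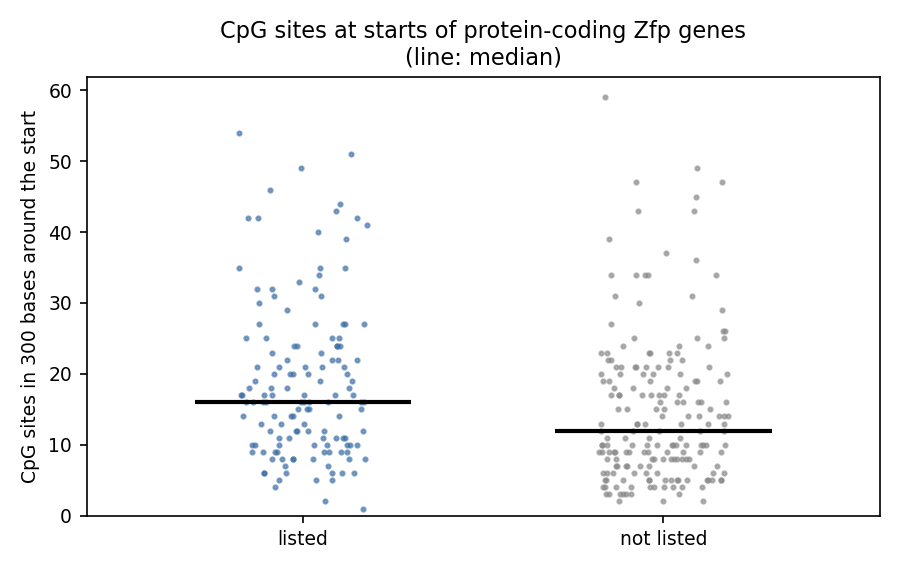
CpG sites in 300 bases around the start (vertical axis) of protein-coding Zfp genes that were listed or not listed. Each point is 1 gene and the horizontal lines are medians, 16 for 139 listed and 12 for 192 unlisted genes, with wide overlap.

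Zfp genes were listed from each of the 20 chromosomes that carry them, at uneven shares. Chromosome 7 held 94 Zfp genes, of which 46 (48.9%) were listed, and chromosome 17 held 47, with 27 listed (57.4%). On chromosome 6, 14 of 19 were listed. Shares were lower on chromosome 13 (9 of 39, 23.1%), chromosome 2 (6 of 30, 20.0%) and chromosome 4 (5 of 28, 17.9%). All protein-coding genes of these 6 chromosomes had shares between 20.7% (chromosome 7) and 28.8% (chromosome 4). The low Zfp share of chromosome 4 thus stood beside the highest general share of the 6.

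**Figure D3:**
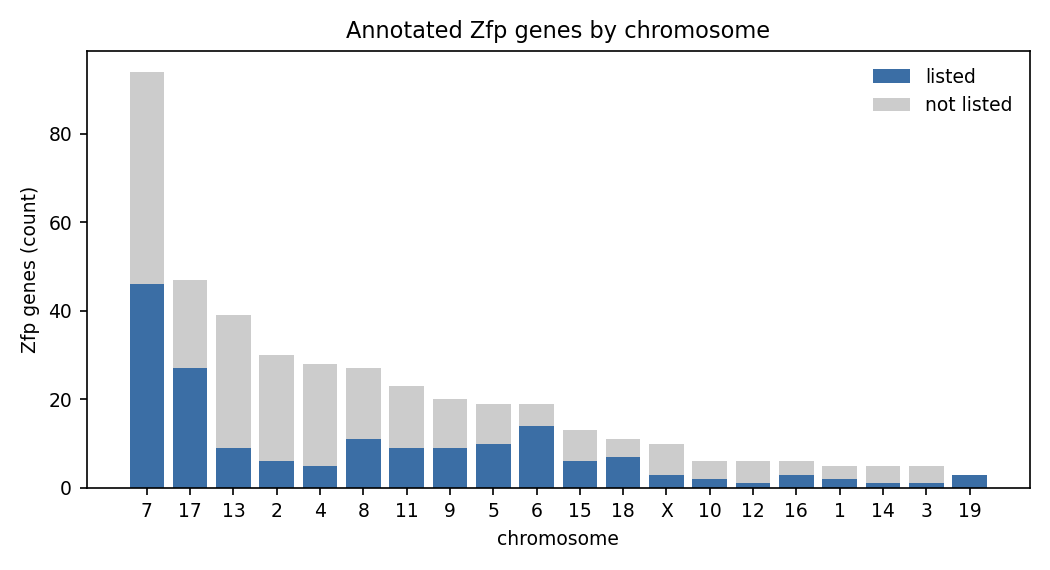
Annotated Zfp genes per chromosome (vertical axis, count), split into listed and not listed, with chromosomes ordered by their number of Zfp genes. Chromosomes 7 and 17 have 46 and 27 listed genes, chromosomes 13, 2 and 4 have 9, 6 and 5.

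Of the genes in clusters as a whole, 88 of 210 were listed (41.9%, exact 95% interval 35.2% to 48.9%), and of single ones 87 of 206 (42.2%, 35.4% to 49.3%). With starts at most 100 kb apart, the counts were 83 of 178 (46.6%, 39.1% to 54.2%) and 92 of 238 (38.7%, 32.4% to 45.2%). The difference was not tested. The intervals cover counting error only. Single clusters ran from none to all of their genes listed. Of 33 clusters, 7 had no listed gene, 3 had only listed genes and 23 were mixed. The 3 with only listed genes held 3 genes each, the fewest a cluster can have. Those without a listed gene held 3 or 4, apart from chr4:147124882-147849126 with 9. In clusters of 3 or 4 genes, none or all can be listed without any difference in share. These counts therefore cannot decide whether clusters differ, which was not tested. The fullest large one lies on chromosome 17 (chr17:32765496-33631716), where 11 of 14 were listed: Zfp871, Zfp799, Zfp870, Zfp472, Zfp952, Zfp763, Zfp563, Zfp955a, Zfp422-ps, Zfp81 and Zfp101. Zfp811, Zfp955b and Zfp414 were the 3 others. A second cluster of that chromosome (chr17:21383707-22456689) had 8 of 18, among them Zfp51, Zfp54, Zfp758 and Zfp948. Further along, Zfp119a, Zfp119b and Zfp959 formed a small cluster with all 3 listed.

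The most populous cluster, on chromosome 13 (chr13:67038594-67827000), had 6 of 24 listed, namely Zfp712, Zfp455, Zfp458, Zfp87, Zfp729b and Zfp85os. Zfp708, known to bind a class of retroviral repeats, and Zfp459 were among the 18 others. On chromosome 7, 7 of 15 genes were listed in the cluster of Zfp14, Zfp82 and Zfp383 (chr7:29768552-30169775), and 6 of 12 in that of Zfp112 and Zfp61 (chr7:24081877-24587840). A cluster of short genes at chr7:127233061-127615785 had 6 of 8, Zfp553, Zfp629, Zfp688, Zfp747, Zfp768 and Zfp771, and a KRAB domain was named for Zfp688 and Zfp747 alone.

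None of 9 genes was listed in the cluster chr4:147124882-147849126, which holds Zfp534, Zfp933, Zfp978, Zfp979, Zfp982, Zfp984, Zfp985, Zfp988 and Zfp991. The starts of 7 of them had a median of 6 CpG sites, against 9.5 for 12 starts of the chromosome 17 cluster with 11 listed genes. Other clusters went the other way. On chromosome 8, Zfp617, Zfp709, Zfp882 and Zfp961 had a median of 21 with none listed, and a chromosome 7 cluster with 1 of 6 listed, Zfp667, had a median of 18. Of the 7 clusters without a listed gene, which hold 30 genes, 5 lie on chromosomes 2 and 4. Whether these genes were expressed in MIN6 cells is not in the files.

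**Figure D4:**
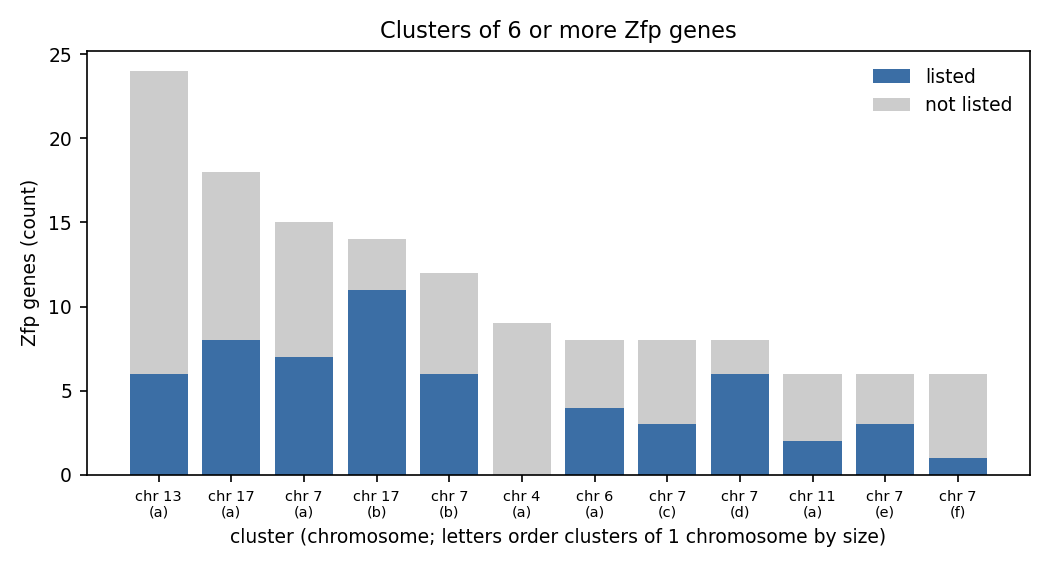
Zfp genes per cluster (vertical axis, count) for the 12 clusters with at least 6 genes, split into listed and not listed. The clusters are named by chromosome, and letters order those of 1 chromosome. The second cluster of chromosome 17 has 11 of 14 listed, the first of chromosome 13 has 6 of 24 and the cluster of chromosome 4 none of 9.

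Zfp genes that share a number and differ by a final letter form 10 groups in the reference. Both genes were listed for Zfp119 and Zfp518, none for Zfp385, Zfp804 and Zfp874, and some for 5 groups. These 5 were Zfp280b without Zfp280c and Zfp280d, Zfp354a without Zfp354b and Zfp354c, Zfp607a without Zfp607b, Zfp729b without Zfp729a, and Zfp955a without Zfp955b. Beside these counts, 42.2% of all Zfp genes were listed, and no difference was tested. A shared number need not mean a close copy: Zfp518a and Zfp518b lie on chromosomes 19 and 5. Compared without gaps, 6 pairs of Zfp starts shared at least 210 of 300 bases. Besides Zfp955a and Zfp955b these were Zfp966 with Zfp967 (300 bases), Zfp968 with Zfp973 (299), Zfp965 with Zfp971 (291), Zfp979 with Zfp980 (255) and Zfp982 with Zfp987 (232), and none of these 5 pairs was listed. How reads that fit more than 1 copy were placed is not given in the sources used here, so the listing of such genes is uncertain.

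Members also overlapped other genes. Of 175 members with a position, 49 overlapped another annotated gene and 9 a listed one. The overlapping pairs numbered 60, and in 10 of them the other gene was listed, beside 16.6% of all gene IDs. Lines were equal in 3 of those 10 pairs. Zfp426 and the small nuclear RNA gene Gm23316 inside it both had 4 lines, and Zfp131 and Gm41077 both had 2. Zfp646 had 4 lines and the overlapping Prss53 had 2.

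A chosen set of 42 Zfp genes was grouped by role, and 18 of them were listed, beside 42.2% of all Zfp genes. Among regulators of transcription, 9 of 16 were. Zfp462 and Zfp516 had 5 lines and Zfp281, a repressor that binds GC-rich sites, had 3. Zfp217, a partner of histone deacetylases that is also known to bind Mettl3 and restrain m6A deposition in stem cells, had 2, as did Zfp503 and Zfp64. Zfp148, Zfp91 and Zfp110 had 1. Zfp143, Zfp219, Zfp335, Zfp369, Zfp423, Zfp521 and Zfp703 were not listed. Zfp423 and Zfp521 are known for opposite parts in fat cell commitment.

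All 4 genes of the spindle, cell cycle and genome upkeep group were listed, a set too small to set against the 42.2% of all Zfp genes. Zfp207, which loads Bub3 onto kinetochores, Zfp365 and Zfp830 had 1 line each and Zfp768 had 3. Of 9 genes of RNA and translation, Zfp622, which acts in ribosome assembly, had 3 lines and Zfp330 had 1. Zfp598, the ubiquitin ligase of collided ribosomes, Zfp106, Zfp326, Zfp346, Zfp385a, Zfp385b and Zfp385c were not listed. Of the 4 CCCH genes of messenger RNA decay, Zfp36l2 alone was listed, with 5 lines. Zfp36 (tristetraprolin), Zfp36l1 and Zfp36l3 were not.

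Among 9 genes known from imprinting, retroelement silencing or the pluripotent state, 2 (22.2%) were listed, beside 42.2% of all Zfp genes and 25.2% of protein-coding genes. Zfp445, which keeps methylation at imprinted loci, and Zfp932, a repressor of endogenous retroviruses, had 1 line each. Zfp57, its counterpart at imprinted loci, Zfp568, Zfp809, Zfp708, Zfp459, Zfp819 and Zfp42 (Rex1), a marker of pluripotent cells, were not listed.

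Partners of these proteins were listed as follows, with 25.2% of protein-coding genes as background. Of 20 KAP1 corepressor genes, 7 (35.0%) were: Resf1 on 4 lines, Chd3, Dnmt3a and Mphosph8 on 3, Hdac2 on 2 and Smarcad1 and Pphln1 on 1. Trim28 itself, Setdb1 and the heterochromatin protein genes Cbx1, Cbx3 and Cbx5 were not listed. Of 23 deadenylation and decapping genes, through which Zfp36 family proteins act, 14 (60.9%) were listed, led by Btg2 with 4 lines and Cnot4, Cnot7 and Tob1 with 3. The unlisted ones were Cnot1, Cnot2, Cnot3, Cnot8, Cnot11, Tob2, Edc4, Xrn1 and Pan3. Of 9 m6A writer genes, 5 were listed, with Mettl3, Rbm15b and Zc3h13 on 3 lines, Rbm15 on 2 and Wtap on 1. Mettl14, Virma, Cbll1 and Mettl16 were not listed.

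The authors' Gene Ontology (GO) table names the listed genes of each term, and 169 of the 176 Zfp genes appear in it. The 7 absent ones are those without a deposited symbol. Of its 16568 terms, 1044 (6.30%) name a Zfp gene, 623 of them 1 only. The authors' deposited table gives each term a p of 1, so its rows are used here to describe annotation and not enrichment. All 169 genes stood under binding, and 166 under nucleic acid binding, where they were 13.1% of 1272 listed genes. Under metal ion binding, 155 Zfp genes were 12.9% of 1199. The other terms with the most Zfp genes were general too: heterocyclic and organic cyclic compound binding (166 each), cell (161), cell part and intracellular (160 each), and cation and ion binding (155 each).

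Regulation of DNA-templated transcription named 120 Zfp genes among 1035, and DNA binding 73 among 725. RNA binding, with 432 listed genes, named only Zfp36l2 and Zfp638 of the Zfp genes. Zinc ion binding, with 225, named 7, namely Zfp276, Zfp330, Zfp37, Zfp407, Zfp622, Zfp638 and Zfp830, although a C2H2 finger was named for 165. Annotation of the Zfp genes thus rests mainly on broad terms. All 97 KRAB genes had a biological process term, and 42 of the 79 others did. Of those 79, 72 are protein-coding, and the rest are the 7 IDs absent from the GO table. In all, 30 genes of the GO table had no biological process. Zfp36l2 stood in 246 terms, Zfp365 in 205, and Zfp275, Zfp518b, Zfp623 and Zfp691 in 4 each, with a median of 63.

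Narrow terms, of at most 100 background genes, named few Zfp genes. T cell differentiation in thymus named 3 of 22 listed genes, Zfp36l2, Zfp608 and Zfp609, and its regulation named Zfp608 and Zfp609. Zfp35 and Zfp608 stood under negative regulation of T cell, lymphocyte and leukocyte differentiation. Zfp365 and Zfp830 stood under maintenance of fidelity in DNA replication (22 of 39 background genes listed) and regulation of DNA replication (22 of 50). Over the narrow terms of this paragraph, the listed share ran from 26.5% (T cell differentiation in thymus) to 56.4% (maintenance of fidelity). Beside them stood 28.3% for the broad term binding and 25.2% of all protein-coding genes. The authors' GO totals were 10022 genes with a peak against 20770 in the background, a general share well above 25.2%. These totals do not match the 9225 IDs of the gene table or the 5409 IDs named under the terms. The reason is not given in the sources used here, so no single background fits the term shares. The differences were not tested. Histone deacetylase complex named Zfp217 and Zfp541, condensed chromosome kinetochore Zfp207 and Zfp276, body morphogenesis Zfp281 and Zfp950, and positive regulation of mRNA metabolism Zfp36l2 and Zfp64.

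Of the 290 pathways in the authors' KEGG table, 1 names a Zfp gene. This pathway, neurotrophin signaling, holds Zfp110, whose protein binds the neurotrophin receptor p75, among 58 input genes against 122 in the background (p = 2.57e-08 and adjusted p = 1.91e-07 in the authors' deposited table). The gene of the related protein, Zfp369, was not listed. The p-values concern all 58 input genes, of which 1 is a Zfp gene, and say nothing of the Zfp genes as a set. They rest on 1 library of each kind per arm, and 25.2% of all protein-coding genes were listed.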

How the data were processed

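RNA of MIN6 cells was fragmented to about 100 nt, and m6A IP and input libraries were sequenced in pairs of 150 bases, per the labels' protocols. BWA 0.7.12 and HOMER 4.9.1 are the tools, and mm10 the build, in the submitters' processing notes. The program and thresholds behind the differential peaks are not given in the sources used here. The deposited GO and KEGG tables hold counts of genes per term and p-values made by the authors, per the file headers. The gene table gives no value. No library has values in these files, so no test of GR against control was possible.

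Members, gene lists and rules were chosen with earlier results of these data known. The 7 members without a deposited symbol were named by Ensembl ID, and 9217 of 9225 IDs matched the name table. Classes, positions and start sequences came from RefSeq tables of GRCm38.p6, matched by symbol. Classes and positions covered 175 of the 176 members. Start sequences covered 139 of 169 listed and 192 of 228 unlisted protein-coding Zfp genes. Counts of CpG sites and the comparison of like starts leave out the rest, among them Zfp276, Zfp612 and Zfp36l2. For genes with several starts the one with the most CpG sites was used. In the GO table, 63 overflow lines were joined to their terms. Genes were named by number of lines, by role, by GO term and by cluster. The planned naming by number of finger motifs could not be applied, and the KRAB share was taken from deposited domain names instead of protein sequences. Shares have exact Clopper-Pearson intervals at 95%. Alternatives were other name matching, gene classes, cluster distances, backgrounds and GO rows, and, chosen after seeing the data, the comparisons of copies, of like starts and of CpG sites (with its mean over starts), members with a domain name and lists by deposited symbol. Parsing, clustering and counting were tested on simulated data. Python 3.11.15, NumPy 2.4.6, SciPy 1.17.1, pandas 2.3.3 and Matplotlib 3.10.9 were used.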

Additional observations from a re-analysis of the deposited data

How the results depend on the processing

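The Zfp share of 42.2% stayed within its interval, 37.4% to 47.1%, under 5 alternatives. These were deposited symbols only (40.5%), protein-coding genes only, all RefSeq classes, synonyms counted too (43.1%) and reference symbols for every ID. The last was the calculation behind the main share, so its 42.2% is no separate check. The background share of 25.2% was 28.9% when protein-coding genes were reweighted to the Zfp genes' length classes and 27.0% without olfactory and vomeronasal receptor genes. The median of 2 lines per gene was 1 with identical lines counted once, which holds by construction. The 169 genes in the GO table were 49 in terms with 10 to 500 background genes. The share listed in clusters, 41.9%, was 46.6% at 100 kb and 42.0% at 500 kb, within its interval, with 38.7% and 42.2% of single genes. The KRAB share (57.7% of members with a domain name), the median of CpG sites, the Zbtb share (64.3% by deposited symbol) and the 3 partner lists also stayed within their interval or spread. Counts of finger motifs in proteins, with their strict spacing, the limit to genes with such motifs and the looser KRAB pattern were not run. An unlisted gene may have an m6A peak that was not called different between the arms. Depth is unknown, so it may also lack a peak, lack reads or share them with a copy. No paired analysis was possible because no value per library is in the files used.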
